A study of Rattus norvegicus with 12 samples.

Results

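The genes described here mark T cells, intraepithelial lymphocytes, B cells and plasma cells in the small intestinal mucosa of the Belgrade rat. They form a list of 38 genes: 24 T cell and intraepithelial genes, 3 genes of all leukocytes, 10 B cell and plasma cell genes, and Pigr, which epithelial cells make. A gene was represented by the probe sets that the array annotation pairs with that gene alone, and 33 of the 38 genes had such a probe set, 43 probe sets in all. A probe set was kept where its mean scaled signal over the 12 arrays was 100 or more, which left 27 of the genes on 36 of their probe sets, out of 17694 probe sets of 31042 on the array. These 27 are 18 T cell and intraepithelial genes, Ptprc and Cd37 of all leukocytes, 6 B cell and plasma cell genes, and Pigr. Where a gene had several probe sets, values are those of the brightest, and those of other probe sets are given for some genes, among them those whose sign differed in a genotype comparison.

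As background, the gut mucosa holds intraepithelial lymphocytes, mostly CD8 T cells kept between enterocytes by the integrin that Itgae encodes, and a lamina propria rich in CD4 T cells and IgA plasma cells. Plasma cells join IgA into dimers through the joining chain, the product of Jchain, and the epithelial receptor encoded by Pigr carries these dimers across the enterocyte into the lumen. Lymphocytes need iron to divide, taken up through the transferrin receptor. The Belgrade mutation lies in Slc11a2, an iron transporter of the enterocyte and of the endosome.

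The 12 arrays fell into 4 groups of 3: b/b duodenum, b/b jejunum, +/b duodenum and +/b jejunum. Rats labelled b/b are homozygous for the recessive Belgrade allele and iron deficient, and +/b rats are heterozygotes that also carry the allele. No wild-type rats were in the comparison. RNA came from a scrape of the whole mucosa, and each replicate was a set of pooled rats. Biotin-labelled RNA of each set went on 1 array per segment. The duodenum and jejunum arrays of a genotype that share a replicate number are taken here as the same set of rats. Age, sex and diet are not given in the labels used here.

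The 12 arrays were brought to a common scale, a trimmed mean of 500, so a signal has no absolute unit. Their median scaled signals then lay between 108.4 and 181.5. On 2 arrays, +/b duodenum replicates 2 and 3, the deposited trimmed means were 51.6 and 126.6 rather than about 500, and they were multiplied by 9.69 and 3.95. The scrapes held epithelium, with all 10 measured enterocyte genes past the filter and a summed enterocyte signal of 173119 to 629866. No gene of the marker lists was at 0 on every array. Exocrine pancreas genes summed to 179887 on +/b duodenum replicate 2, against 5216 to 12748 on the other duodenum arrays and 1927 to 4367 in jejunum. Red blood cell genes summed to 12546 to 17648 in b/b duodenum and 1935 to 3553 in +/b duodenum, and to 10264 to 14347 in b/b jejunum and 1961 to 3022 in +/b jejunum, and their part in the genotype values below was not tested.

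The genotype comparison asks whether the mucosa of b/b rats differed in lymphocyte RNA. None of the 27 genes was called in duodenum, nor any of their 36 probe sets (limma with Benjamini-Hochberg adjustment over all 17694 probe sets, threshold 0.05). Of all probe sets 0.0396% were called there, and at an unadjusted p under 0.05 the count was 0 of 27 genes and 3 of 36 probe sets, against 6.17% of all probe sets. The lowest adjusted p of the 27 genes was 0.803, for Cd37. In bulk RNA of a scrape, fewer cells of a type and less RNA per cell cannot be told apart.

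The genes of the T cell receptor complex overlapped between the genotypes. Cd3e, a signalling chain of the CD3 complex, had scaled signals of 760, 418 and 300 in b/b duodenum, against 366, 379 and 397 in +/b duodenum. The b/b values spread on both sides of the +/b values, and the log2 change was 0.26 ± 0.32 (SE; 95% interval -0.43 to 0.95; adjusted p 0.926 by limma). A dimmer probe set of Cd3e gave -0.26 ± 0.44, so the sign is not settled. Cd3g, another chain of that complex, had 2403, 3787 and 3685 in b/b duodenum, against 3890, 3567 and 1863 in +/b duodenum. The ranges overlapped, with a change of 0.12 ± 0.29. Cd3d, Cd247, which encodes the zeta chain, and the kinases Lck and Zap70 had changes of 0.34, 0.15, -0.07 and 0.00 on the log2 scale, each with overlapping groups.

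Cd8a, the coreceptor chain of most intraepithelial T cells, had 654, 310 and 183 in b/b duodenum, against 470, 606 and 269 in +/b duodenum. Its b/b values covered more than the whole +/b range, and the change was -0.33 ± 0.49 (95% interval -1.39 to 0.73). The other 2 probe sets of Cd8a gave -0.27 and -0.21. Cd4, the coreceptor of helper T cells, sat near the filter, at 26, 112 and 71.4 in b/b duodenum and 142, 178 and 19.2 in +/b duodenum. With arrays of each genotype below 30, its change of -0.40 ± 0.64 carried the widest error of the 18 T cell genes. Itgae, the alpha chain of the integrin that binds E-cadherin, had 450, 355 and 279 in b/b duodenum, against 499, 456 and 383 in +/b duodenum. Here b/b lay lower on average, 361 ± 85.6 against 446 ± 58.4 (SD, n = 3 each), but the ranges met and the change of -0.31 ± 0.26 did not pass the test (adjusted p 0.874 by limma).

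The cytotoxic genes overlapped as well. Gzma, a granzyme of cytotoxic granules, had 1550, 816 and 922 in b/b duodenum, against 975, 784 and 1000 in +/b duodenum, a change of 0.20 ± 0.24. Gzmb had 955, 686 and 585 in b/b duodenum, against 574, 962 and 625 in +/b duodenum, a change of 0.05 ± 0.26. A dimmer probe set of Gzmb read 391, 350 and 405 in b/b duodenum, against 209, 347 and 91.7 in +/b duodenum, so its groups just missed each other (change 0.94 ± 0.44, adjusted p 0.789 by limma). Ccl5, a chemokine that effector T cells store, had 6573, 3279 and 1513 in b/b duodenum, against 3755, 4903 and 1798 in +/b duodenum. The b/b arrays spread more widely than the genotypes differed, and the change was -0.01 ± 0.54 (95% interval -1.17 to 1.16). Perforin (Prf1) and the NK receptors Klrk1 and Klrd1 had changes of 0.39 ± 0.44, 0.41 ± 0.56 and 0.15 ± 0.44.

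Il7r, the receptor for the T cell survival cytokine IL-7, read 140, 149 and 145 in b/b duodenum and 210, 171 and 96 in +/b duodenum. Its dimmer probe set read 168, 85.9 and 82.5 in b/b duodenum, against 2.67, 118 and 0.0405 in +/b duodenum. The 2 lowest readings gave that probe set a change of 1.84 ± 0.69 (adjusted p 0.788 by limma), where the brighter gave -0.07 ± 0.33. That change moved to 3.80 with an offset of 1 before the logarithm and to 0.90 with an offset of 64, and was not called with either. In jejunum the dimmer probe set gave -0.07 ± 0.69 and the brighter 0.17 ± 0.33. Over the 18 T cell genes the median change in duodenum was 0.09, with 11 above 0 and 7 below, against a median of -0.05 and 44.5% above 0 over all probe sets. Single genes ran between -0.40 and 0.43, and for 10 of the 18 the 95% interval lay within 1 log2 unit of 0 on either side.

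**Figure D1:**
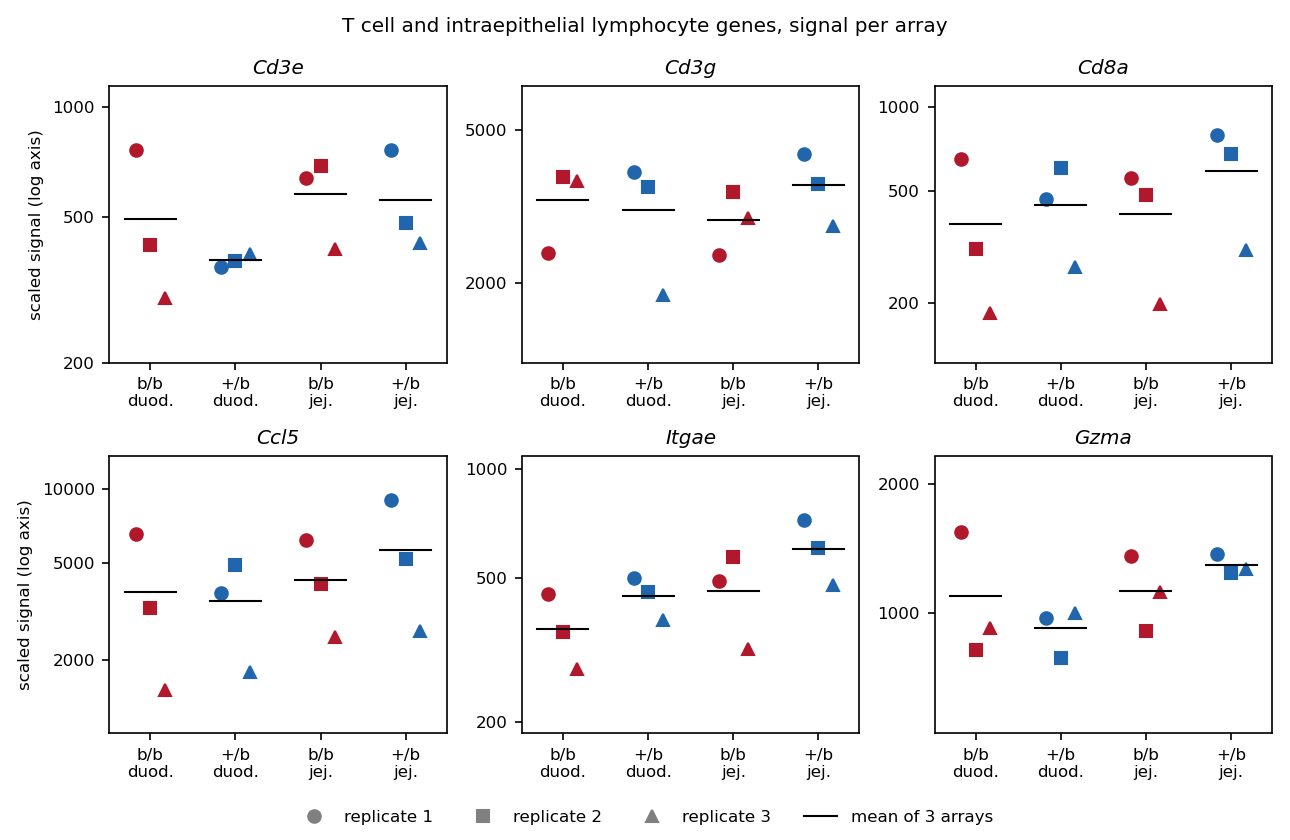
Scaled signal (log axis) of T cell genes on each array, by group, with b/b left of +/b in each segment; points are arrays, with a shape for each replicate, and lines are means of 3 arrays. In duodenum the b/b values of Cd3e (300 to 760) and Cd8a (183 to 654) spread on both sides of the +/b values.

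Ptprc, the leukocyte phosphatase CD45, is the gene that comes nearest to a count of all leukocytes. It had 663, 766 and 658 in b/b duodenum, against 649, 686 and 1106 in +/b duodenum, with a change of -0.18 ± 0.21. Its dimmer probe set had 251, 166 and 125 in b/b duodenum, against 370, 377 and 297 in +/b duodenum. Those groups did not overlap, and the change of -0.93 ± 0.38 (95% interval -1.74 to -0.13; unadjusted p 0.0266) had an adjusted p of 0.789 by limma. Both probe sets point lower in b/b, by different amounts. Cd37, a tetraspanin of leukocytes, went the other way at 386, 204 and 163 in b/b duodenum and 172, 217 and 36.9 in +/b duodenum, a change of 0.92 ± 0.49.

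Of the B cell genes, Ms4a1, which encodes the B cell antigen CD20, had 78.5, 90.2 and 110 in b/b duodenum, against 131, 112 and 122 in +/b duodenum. It was the only one of the 27 genes whose duodenum groups did not overlap by its brightest probe set, against 8.7% of all probe sets, and its change of -0.35 ± 0.41 had an adjusted p of 0.921 by limma. Cd22, an inhibitory lectin of B cells, and Cxcr5, the receptor that draws B cells into follicles, had changes of 0.07 ± 0.27 and -0.05 ± 0.39.

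The plasma cell genes overlapped as well. Jchain had 21853, 14497 and 11514 in b/b duodenum, against 25777, 6777 and 18083 in +/b duodenum. Its change of 0.07 ± 0.42 had a 95% interval of -0.83 to 0.97, which holds changes of nearly 1 log2 unit either way. The interval takes no account of the adjustment over all probe sets, so larger changes could also go uncalled. Mzb1, a chaperone of antibody assembly, had 1343, 1293 and 1177 in b/b duodenum, against 1872, 560 and 796 in +/b duodenum. The b/b values were close together (1271 ± 85.4) and the +/b values were not (1076 ± 699; SD, n = 3 each), with a change of 0.42 ± 0.38. Pou2af1, the B cell coactivator of octamer factors, had 347, 343 and 302 in b/b duodenum, against 513, 113 and 219 in +/b duodenum, a change of 0.46 ± 0.40. For Jchain, Mzb1 and Pou2af1 alike, +/b replicate 1 was the highest duodenum array and +/b replicate 2 the lowest. The median change of the 6 B cell and plasma cell genes was 0.07, with 4 above 0 and 2 below.

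Pigr had 45840, 25136 and 21079 in b/b duodenum, against 40192, 27894 and 24200 in +/b duodenum. Its means were nearly equal, 30685 ± 13280 in b/b duodenum and 30762 ± 8373 in +/b duodenum (SD, n = 3 each), and the change was -0.05 ± 0.33 (95% interval -0.76 to 0.66).

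In jejunum none of the 27 genes or 36 probe sets was called either (limma), against 0.0339% of all probe sets, and none had an unadjusted p under 0.05, against 1.34% of all probe sets. All adjusted p-values of the 27 genes were 1. Ptprc was the only gene of the 27 whose groups did not overlap, against 7.9% of all probe sets. It had 845, 1001 and 878 in b/b jejunum, against 1177, 1208 and 1062 in +/b jejunum, a change of -0.34 ± 0.21 (95% interval -0.78 to 0.11; adjusted p 1 by limma). The dimmer probe set of Ptprc gave -0.35 ± 0.38, with overlap.

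T cell genes lay lower in b/b jejunum more often than higher, and each had a 95% interval that held 0. Of the 18 genes 13 were below 0 and 5 above, with a median of -0.21 and a range of -0.73 to 0.28, beside a median of -0.03 and 45.5% above 0 over all probe sets. The direction was not particular to T cell genes, as 13 of 15 myeloid genes were also below 0, with a median of -0.13. Cd3g had 2367, 3445 and 2953 in b/b jejunum, against 4351, 3616 and 2817 in +/b jejunum, a change of -0.29 ± 0.29. Cd3e, with 639, 687 and 409 in b/b jejunum against 760, 482 and 424 in +/b jejunum, had a change of 0.07 ± 0.32, and its dimmer probe set -0.10 ± 0.44. The sign of Cd3e is thus not settled in jejunum either. Cd8a had 558, 487 and 197 in b/b jejunum, against 795, 678 and 309 in +/b jejunum. Its change of -0.53 ± 0.49 came with -0.05 and -0.31 from its other probe sets. Itgae had 489, 571 and 318 in b/b jejunum, against 722, 603 and 477 in +/b jejunum, a change of -0.39 ± 0.26. Both genes averaged lower in b/b jejunum, with overlapping groups.

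Ccl5 had 6163, 4096 and 2495 in b/b jejunum, against 9044, 5160 and 2634 in +/b jejunum, a change of -0.32 ± 0.54. Gzma had 1357, 905 and 1119 in b/b jejunum, against 1375, 1238 and 1265 in +/b jejunum, a change of -0.21 ± 0.24. Gzmb had 686, 552 and 884 in b/b jejunum, against 875, 641 and 946 in +/b jejunum, a change of -0.22 ± 0.26, where its dimmer probe set averaged 451 in b/b and 425 in +/b (0.17 ± 0.44). By their brightest probe sets these 3 effector genes averaged lower in b/b jejunum, with overlapping groups. Ltb, the membrane lymphotoxin that lymphoid follicles depend on, had the estimate of the 18 furthest from 0, at -0.73 ± 0.47. The jejunum arrays of both genotypes that share a replicate number deviated together (correlations of 0.12 to 0.42), though the rats differ and the labels do not say what the number marks. Within these pairs of arrays, compared after the values were seen, 9 of the 18 T cell genes were lower in b/b in all 3 pairs: Ccl5, Cd247, Cd5, Cd8a, Gzma, Gzmb, Itgae, Lck and Zap70. So were Ptprc and Pigr, against 16.4% of all probe sets, and Cd22 was higher in all 3, against 13.5%. Genes of the same cell type can vary together across arrays, and these pairs join different rats. The count is thus not a test of a genotype difference. In duodenum, arrays of both genotypes sharing a number correlated at -0.06 to 0.16, and no count over all 18 genes is given. Of these 9 genes, Itgae was lower in b/b in all 3 duodenum pairs as well. Ccl5, Cd247, Cd5, Cd8a, Gzma, Gzmb, Lck and Zap70 were each higher in b/b in the duodenum pair of replicate 1. With the number as a replicate block none of the 27 genes was called (limma). Cd4 was near the filter, with 136, 89.9 and 126 in b/b jejunum and 145, 70.6 and 121 in +/b jejunum.

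Among the plasma cell genes in jejunum, Jchain had 12134, 9413 and 7380 in b/b jejunum, against 13348, 9027 and 7034 in +/b jejunum, means of 9642 ± 2386 and 9803 ± 3228 (SD, n = 3 each) and a 95% interval of -0.90 to 0.90 for the change. The groups covered nearly the same range, and the dimmer probe set averaged 2217 in b/b and 1652 in +/b (0.39 ± 0.41). Mzb1 had 738, 653 and 490 in b/b jejunum, against 937, 456 and 416 in +/b jejunum, a change of 0.13 ± 0.38. Pou2af1 had 150, 211 and 159 in b/b jejunum, against 303, 190 and 250 in +/b jejunum, a change of -0.47 ± 0.40. Pigr had 19169, 11535 and 14841 in b/b jejunum, against 23169, 13162 and 15442 in +/b jejunum. The ranges overlapped, and the change was -0.17 ± 0.33 (95% interval -0.88 to 0.54). Ms4a1 had 88.7, 138 and 95.9 in b/b jejunum, against 337, 130 and 114 in +/b jejunum, so its change of -0.63 ± 0.41 rests largely on 1 +/b array.

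**Figure D2:**
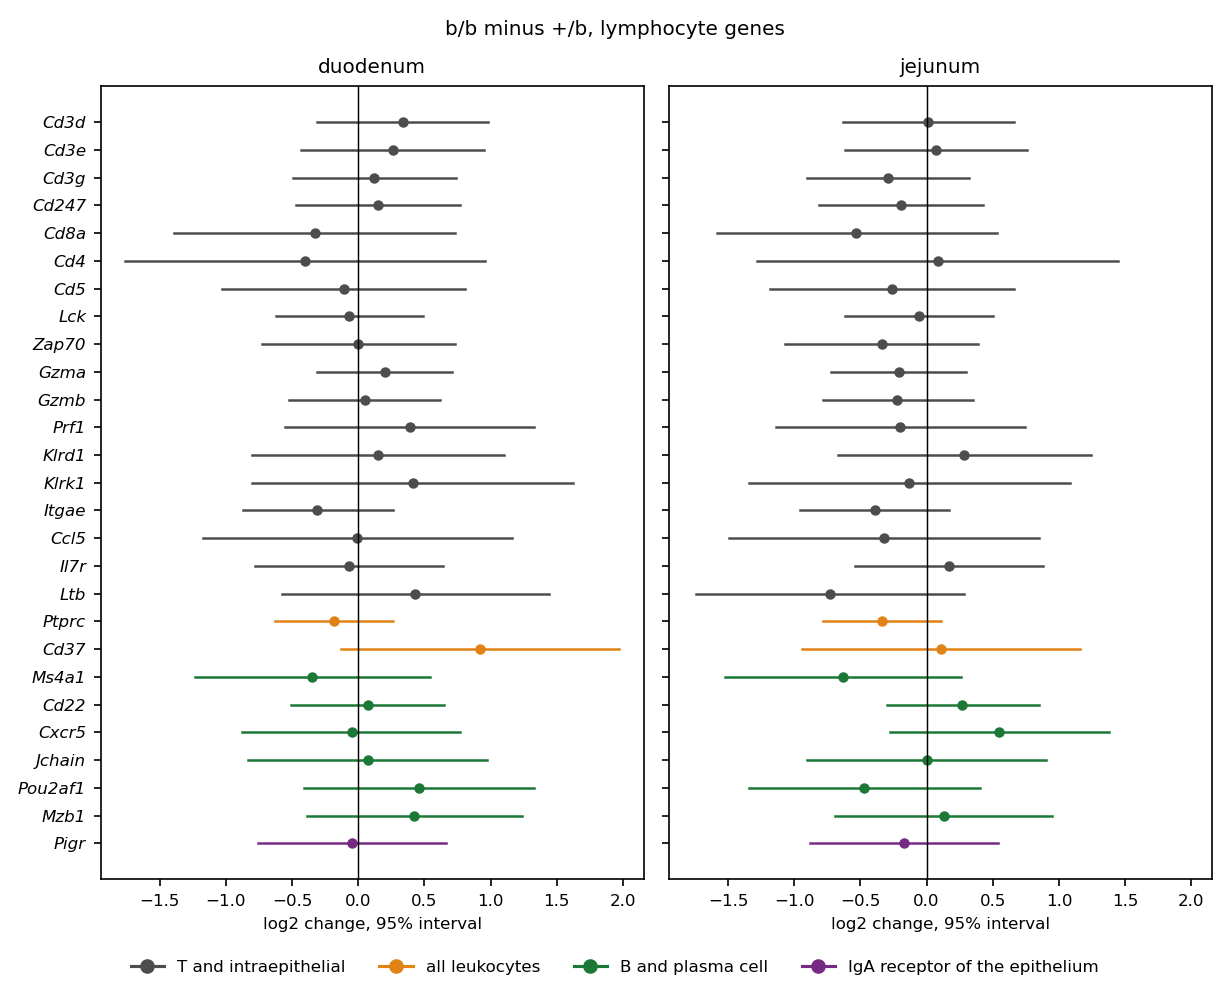
Change of the 27 genes on the log2 scale (b/b minus +/b) in duodenum and in jejunum; points are limma estimates and bars 95% intervals, coloured by gene class. No gene was called, and the T cell genes ran from -0.40 to 0.43 in duodenum and from -0.73 to 0.28 in jejunum.

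A further contrast set the genotype change in jejunum against that in duodenum, as the jejunum change minus the duodenum change. No gene of the 27 was called (limma, lowest adjusted p 1), nor was any probe set on the array (0%), and 0 of 27 had an unadjusted p under 0.05, against 1.73% of all probe sets. Of the 27 genes 6 were above 0 and 21 below, with a median of -0.27, where 52% of all probe sets were above 0. Pou2af1 gave -0.93 ± 0.57, Ltb -1.16 ± 0.67 and Pigr -0.12 ± 0.47 on the log2 scale. The 95% interval for Pigr was -1.12 to 0.88.

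The segment comparison asks how jejunum differed from duodenum within a genotype. Of the 27 genes, Pigr and Mzb1 lay lower in jejunum in every set of rats. Pigr averaged 15182 ± 3828 in b/b jejunum against 30685 ± 13280 in b/b duodenum, and 17258 ± 5245 in +/b jejunum against 30762 ± 8373 in +/b duodenum (SD, n = 3 each). No jejunum array reached the lowest duodenum array of its genotype. The log2 change was -0.96 ± 0.33 in b/b rats (95% interval -1.67 to -0.25; adjusted p 0.298 by limma) and -0.84 ± 0.33 in +/b rats (-1.55 to -0.13; adjusted p 0.856). Within sets of rats it was lower in all 6, by -1.26, -1.12 and -0.51 in b/b and -0.79, -1.08 and -0.65 in +/b, as were 4.85% of all probe sets. With the set of rats as a replicate block, which takes out what the 2 segments of a set share, Pigr was called in both genotypes (adjusted p 0.00747 in b/b and 0.0447 in +/b). With the set of rats as a random block at its estimated correlation neither call held (adjusted p = 0.0678 in b/b and 0.247 in +/b with an estimated correlation). The fixed-block calls also rest on few sets: the b/b call was lost without b/b set 1 (adjusted p 0.0552) or set 2 (0.105), and the +/b call was lost without any set but b/b set 3, with adjusted p of 0.0515 to 0.237.

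Jchain and Pigr act on the same antibody, and their promoters are shown as the stretch of 250 bases before each gene's RefSeq start on GRCr8. In the Pigr promoter the capitals mark an E-box, the letters CACGTG, which starts 73 bases before the gene. An E-box in the PIGR promoter is known from human cells to bind USF factors. The Jchain promoter held no E-box of those letters and is shown in lower case throughout. Pigr lies at chr13:44850932-44851181 on the plus strand and Jchain at chr14:19822726-19822975 on the plus strand.
Pigr: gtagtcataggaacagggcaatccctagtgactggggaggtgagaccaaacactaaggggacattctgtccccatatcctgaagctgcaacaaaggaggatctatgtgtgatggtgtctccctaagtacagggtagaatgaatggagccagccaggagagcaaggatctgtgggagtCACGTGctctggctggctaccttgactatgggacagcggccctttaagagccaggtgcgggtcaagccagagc
Jchain: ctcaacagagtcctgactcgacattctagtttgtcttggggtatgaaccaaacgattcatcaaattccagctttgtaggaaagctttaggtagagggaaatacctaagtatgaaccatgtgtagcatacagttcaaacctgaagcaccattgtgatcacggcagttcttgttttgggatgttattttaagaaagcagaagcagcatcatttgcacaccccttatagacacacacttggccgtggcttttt
CACGTG, which reads the same on both strands, was in 5.79% of 27457 such promoters and in 1 of the 26 found for the 27 genes, that of Pigr. The octamer ATGCAAAT, the site type of the factors that Pou2af1 assists, was searched on both strands and was in 1.5% of promoters and in 0 of the 26, which says only that these letters are not in these windows. These motifs do not overlap in their letters, and a match is a description of sequence.

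Jchain averaged 9642 ± 2386 in b/b jejunum against 15954 ± 5321 in b/b duodenum, and 9803 ± 3228 in +/b jejunum against 16879 ± 9557 in +/b duodenum (SD, n = 3 each). It was lower in jejunum in 5 of 6 sets of rats, the exception being +/b set 2, whose duodenum array had the lowest Jchain of that segment. The changes were -0.70 ± 0.42 in b/b and -0.63 ± 0.42 in +/b rats and were not called, with or without the replicate block (adjusted p 0.654 and 0.944, and 0.200 and 0.410 with it). The block called Jchain only without +/b set 2, the set with the pancreas-rich duodenum array, at adjusted p of 0.0152 in b/b and 0.0141 in +/b. The dimmer probe set was lower in all 6 sets, by -0.77 ± 0.41 in b/b and -0.75 ± 0.41 in +/b on average. Mzb1 averaged 627 ± 126 in b/b jejunum against 1271 ± 85.4 in b/b duodenum, with no overlap, and 603 ± 290 in +/b jejunum against 1076 ± 699 in +/b duodenum (SD, n = 3 each). It was lower in all 6 sets of rats, by -1.02 ± 0.38 in b/b (adjusted p 0.353; 0.0164 with the replicate block, by limma) and -0.73 ± 0.38 in +/b (adjusted p 0.936; 0.178 with the replicate block). The b/b call under the block was lost with the set of rats as a random block (adjusted p = 0.0887 with an estimated correlation), without b/b set 2 (0.141) and without b/b set 3 (0.136). Pou2af1 averaged 173 ± 32.8 in b/b jejunum against 331 ± 24.8 in b/b duodenum, again with no overlap, a change of -0.88 ± 0.40 (adjusted p 0.501; 0.174 with the block). In +/b rats its estimate was 0.04 ± 0.40. The difference between those effects, given above for Pou2af1, was not called.

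**Figure D3:**
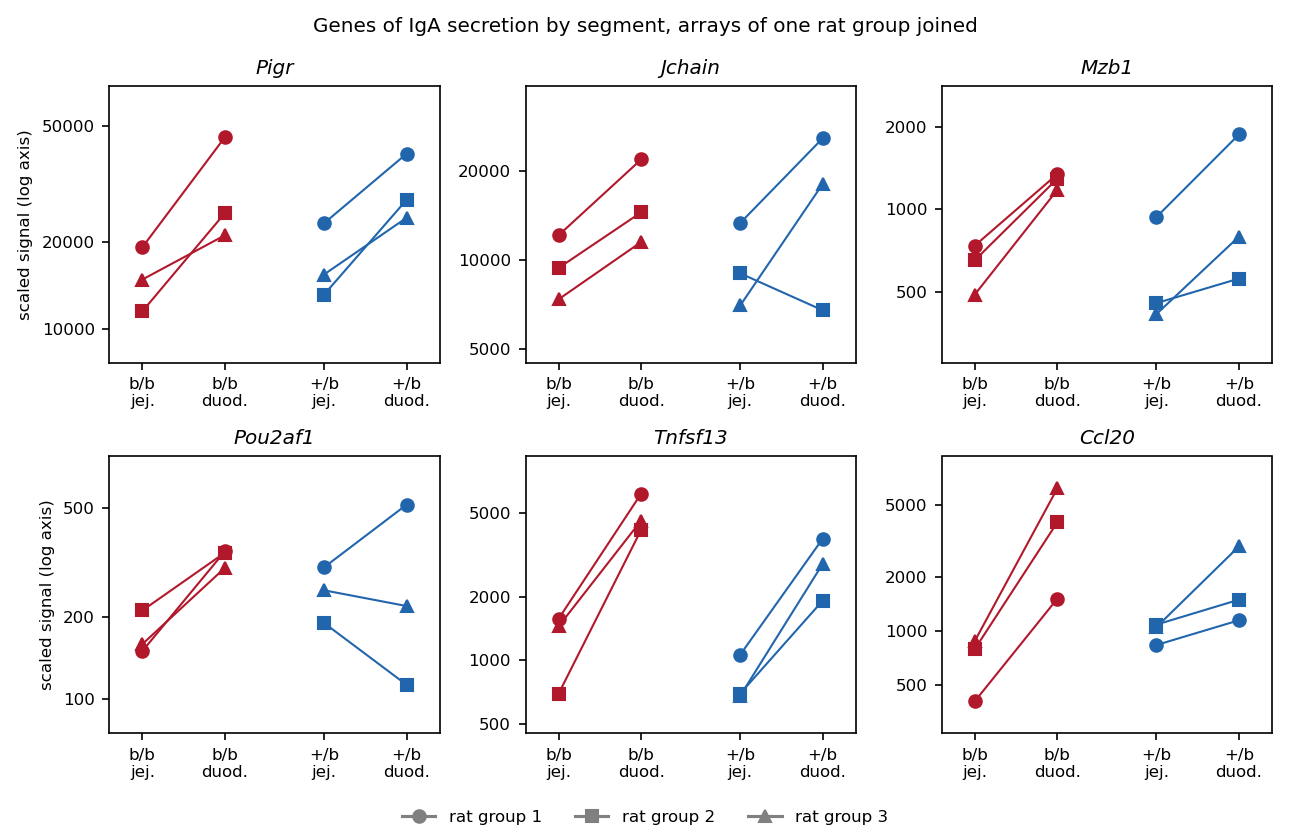
Scaled signal (log axis) of Pigr, Jchain, Mzb1, Pou2af1, Tnfsf13 and Ccl20 in the jejunum and duodenum of each set of rats (rat group in the legend), joined by lines, for b/b and +/b rats. Pigr and Mzb1 were lower in jejunum in all 6 sets, Jchain in 5 of 6 and Pou2af1 in 4 of 6, and Tnfsf13 and Ccl20, described further on, in all 6.

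By the fit without the block none of the 27 genes was called between segments (limma), beside 0.763% of all probe sets in b/b and 0.0565% in +/b. With the block the counts were 2 of 27 in b/b and 1 of 27 in +/b, beside 2.44% and 0.486% of all probe sets, and with the set of rats as a random block they were 0 in both. At an unadjusted p under 0.05 there were 3 of 27 in b/b, all lower in jejunum (Pigr, Mzb1 and Pou2af1), against 9.77% of all probe sets. In +/b there were also 3 of 27, Pigr lower and Ptprc and Cd37 higher, against 5.36%. Groups did not overlap for 5 of 27 genes in b/b, against 14.8% of all probe sets, and for 3 of 27 in +/b, against 10.8%. None of the 15 myeloid genes past the filter was called between segments, beside 0.763% of all probe sets in b/b and 0.0565% in +/b. Over all 19 listed myeloid genes, those below the filter included, signals summed to 14700 to 27789 in b/b jejunum against 7683 to 12907 in b/b duodenum. In +/b the sums were 17811 to 34653 in jejunum against 9467 to 17869 in duodenum, with overlap. Lyz2, a lysozyme, was the brightest of these genes. It alone gave 9344 to 19855 in b/b jejunum against 3217 to 7733 in b/b duodenum, and 12235 to 27013 in +/b jejunum against 5172 to 12178 in +/b duodenum. Which cells gave the Lyz2 signal was not tested. Without Lyz2, a sum taken after seeing the data, the other 18 genes gave 5047 to 7934 in b/b jejunum against 4466 to 5174 in b/b duodenum. In +/b they gave 5576 to 7639 in jejunum against 4295 to 5691 in duodenum, so the segments overlapped in both genotypes. The list had 15 genes past the filter, none of them at 0 on every array, and its part in the segment values was not tested.

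None of the T cell genes was called between segments by the fit without the block or with it. Their median change was 0.06 in b/b rats (10 above 0, 8 below), where 58.1% of all probe sets were above 0 with a median of 0.07. It was 0.33 in +/b rats (16 above 0, 2 below), where 56.6% were above 0 with a median of 0.05. Myeloid genes lay higher in jejunum as well, with 15 of 15 above 0 in +/b rats (median 0.45). In b/b rats 12 of the 15 were above 0 (median 0.32). Il7r had 214, 335 and 192 in b/b jejunum, against 140, 149 and 145 in b/b duodenum, with no overlap and a change of 0.67 ± 0.33 (adjusted p 0.540 by limma). It was higher in jejunum in all 6 sets of rats, as was Itgae, and as were 7.73% of all probe sets. Itgae had changes of 0.32 ± 0.26 in b/b and 0.41 ± 0.26 in +/b rats. Gzma had 1375, 1238 and 1265 in +/b jejunum, against 975, 784 and 1000 in +/b duodenum. The groups were apart, with a change of 0.49 ± 0.24 (adjusted p 0.927 by limma), while in b/b rats they overlapped and the change was 0.08 ± 0.24. Cd3e in +/b rats was likewise apart, by 0.48 ± 0.32. Ptprc was higher in jejunum by 0.38 ± 0.21 in b/b and 0.53 ± 0.21 in +/b (adjusted p 0.616 and 0.856 by limma), and Cd37 by 0.26 ± 0.49 and 1.07 ± 0.49.

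**Figure D4:**
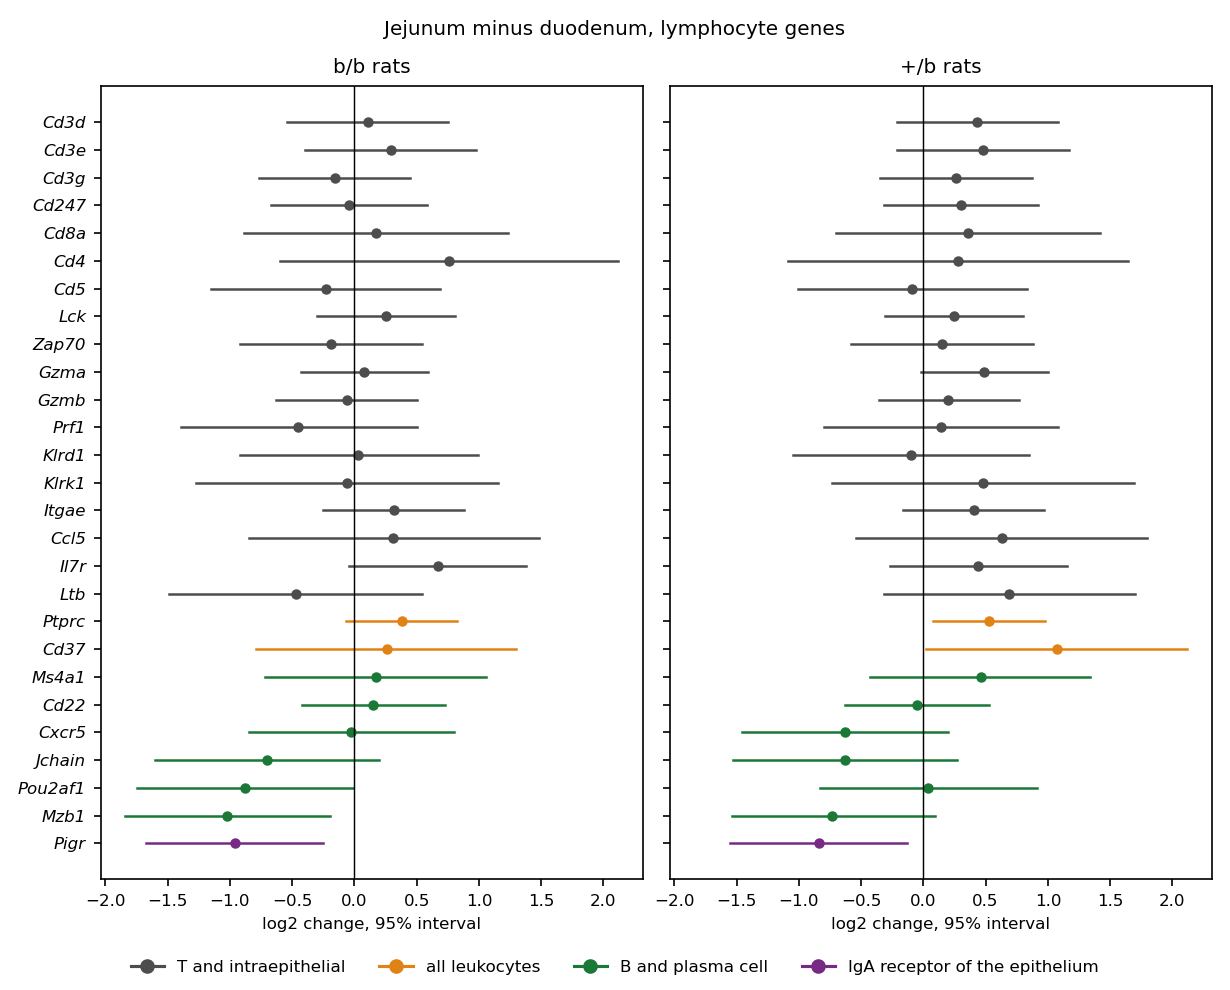
Change of the 27 genes on the log2 scale (jejunum minus duodenum) in b/b and in +/b rats; points are limma estimates and bars 95% intervals, coloured by gene class. Pigr (-0.96 and -0.84) and Mzb1 (-1.02 and -0.73) lie furthest below 0, and Cd37 in +/b rats (1.07) furthest above.

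Other genes of these cell types were read from further lists. Of 30 further T and NK cell genes past the filter (of 64 listed), none was called in duodenum or jejunum by genotype (limma). At an unadjusted p under 0.05 the count was 0 of 30 in each, against 6.17% of all probe sets in duodenum and 1.34% in jejunum. The median change was 0.06 in duodenum, with 17 above 0, against 44.5% above 0 over all probe sets. In jejunum it was -0.15, with 6 above 0 and 24 below, against 45.5% above 0 over all probe sets. The smallest p-values in duodenum belonged to Txk, a T cell kinase, at 1.23 ± 0.63, the costimulatory receptor Icos at 0.86 ± 0.44, the chemokine receptor Cxcr3 at -0.61 ± 0.32 and Cd48 at -0.47 ± 0.25. Txk rested on 1 array, +/b replicate 1, at 7.61 where the other duodenum arrays ran from 99.3 to 238. In jejunum they belonged to Tcf7, a transcription factor of T cell precursors and memory cells, at -0.64 ± 0.31, Gimap7 at -0.45 ± 0.32, Cd48 at -0.30 ± 0.25 and Bcl11b at -0.29 ± 0.24.

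Of 11 further B cell and plasma cell genes past the filter (of 37 listed), none was called by genotype (limma). An unadjusted p under 0.05 was found for 1 in each segment, against 6.17% of all probe sets in duodenum and 1.34% in jejunum. In duodenum this was Tnfrsf17, the plasma cell survival receptor BCMA, at 201 in b/b against 116 in +/b on average, a change of 0.78 ± 0.36 (adjusted p 0.789). The other probe set of Tnfrsf17 averaged 149 in b/b and 170 in +/b, a change of -0.09 ± 0.50, so the direction is not settled. Sdc1, a plasma cell proteoglycan that epithelium also makes, had a change of 0.53 ± 0.26, Blnk of 0.66 ± 0.39 and Xbp1, the transcription factor of secretory cells, of -0.28 ± 0.27. In jejunum it was Syk, a kinase of B cell receptor signalling, at 1124 in b/b against 819 in +/b on average, a change of 0.45 ± 0.19 (adjusted p 1). It was 1 of 3 of the 11 genes whose groups did not overlap there, against 7.9% of all probe sets. Ccr10, the receptor by which IgA plasma cells enter mucosae, had a change of 0.85 ± 0.45 there, Blnk of 0.40 ± 0.39 and Fcrla of 0.37 ± 0.38. The median was 0.26 in duodenum and 0.20 in jejunum, each with 8 of 11 above 0, against 44.5% and 45.5% of all probe sets. The brightest of the 11 were Cd24, Xbp1, Blnk and Sdc1, at mean scaled signals of 17862, 8320, 3655 and 3131. Listed B cell genes such as Bank1, Blk, Btk, Cd40, Cr2, Ebf1 and Fcer2 were below the filter. Which cells gave the signals of the 11 genes was not tested. Of 16 further leukocyte genes (of 20) none was called by genotype. At an unadjusted p under 0.05 there were 0 in each segment, against 6.17% and 1.34% of all probe sets. Their medians were -0.01 in duodenum and -0.24 in jejunum. Cd48 is also 1 of these 16, and its changes are given above with the T and NK cell genes. Of the others, Vav1, Itgb2, Laptm5 and Arhgap30 had the smallest p in duodenum, with -0.53, -0.30, 0.28 (-0.30 by another probe set of Laptm5) and 0.24, and Rac2, Itgal, Laptm5 and Hcls1 in jejunum, with -0.34, 0.33, -0.31 and -0.30.

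The signals that draw or sustain these cells gave the only calls among the lymphocyte lists by the fit without the block. Of 10 homing and follicle genes past the filter (of 16), 2 were called lower in jejunum in b/b rats, Tnfsf13 and Ccl20. Of all probe sets 0.763% were called in that comparison, in either direction. None of the 10 genes was called by genotype, against 0.0396% of all probe sets in duodenum and 0.0339% in jejunum. Tnfsf13 encodes APRIL, a cytokine that supports IgA switching and plasma cell survival. It had 1573, 695 and 1449 in b/b jejunum, against 6154, 4150 and 4592 in b/b duodenum, and 1063, 696 and 679 in +/b jejunum, against 3771, 1918 and 2866 in +/b duodenum. Jejunum was lower in all 6 sets of rats, with no overlap in either genotype, by -2.05 ± 0.32 in b/b (adjusted p 0.00787) and -1.77 ± 0.32 in +/b (adjusted p 0.0800; 0.00261 with the replicate block, by limma). Of all probe sets 14.8% did not overlap between segments in b/b and 10.8% in +/b. A dimmer probe set of Tnfsf13 gave -2.11 ± 0.44 in b/b (adjusted p 0.0404 by limma). By genotype Tnfsf13 did not overlap in duodenum, as for 8.7% of all probe sets. It was higher in b/b there by 0.83 ± 0.32, but was not called (adjusted p 0.789 by limma).

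Ccl20 is the epithelial chemokine that draws cells bearing CCR6 to follicles. It had 409, 796 and 882 in b/b jejunum, against 1514, 4014 and 6188 in b/b duodenum, and 838, 1087 and 1053 in +/b jejunum, against 1149, 1494 and 2949 in +/b duodenum. It was lower in jejunum in all 6 sets, by -2.32 ± 0.45 in b/b (adjusted p 0.0313 by limma) and -0.79 ± 0.45 in +/b (adjusted p 0.941). The b/b call was lost without any 1 array of b/b jejunum (adjusted p 0.0572 to 0.131), without b/b duodenum replicate 2 (0.154) or 3 (0.127), without +/b jejunum replicate 2 (0.0507) and with arrays centred on their medians (0.116). The difference between the genotypes in this segment effect, -1.53 ± 0.64, was not called (adjusted p 1). Il15, the epithelial cytokine that sustains intraepithelial lymphocytes, was higher in jejunum than in duodenum of b/b rats by 1.15 ± 0.37 (adjusted p 0.272; 0.0482 with the replicate block, by limma). It was higher in jejunum in all 6 sets of rats, those of +/b included, as were 7.73% of all probe sets. Ccl28, the ligand of Ccr10, had 125, 95.8 and 162 in b/b duodenum, against 323, 184 and 242 in +/b duodenum. Those groups did not overlap, as for 8.7% of all probe sets, and the change was -0.88 ± 0.33 (adjusted p 0.788 by limma). The follicle chemokine Cxcl13 had the widest error in jejunum by genotype, -1.64 ± 0.79, and Glycam1 had changes of 0.67 ± 0.39 in duodenum and 0.65 ± 0.39 in jejunum.

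For some genes the order of arrays within groups ran with the replicate number, a pattern seen only after the values were known. Replicate 3 was the lowest array in all 4 groups for 6 of the 18 T cell genes, Ccl5, Cd5, Cd8a, Itgae, Lck and Zap70, as it was for 6.58% of all probe sets. Ccl5 had 1513, 1798, 2495 and 2634 on the replicate 3 arrays of b/b duodenum, +/b duodenum, b/b jejunum and +/b jejunum, each below the other arrays of its group. Replicate 2 was the lowest in all 4 groups for Cd22 and Gzma. None of the 18 T cell genes was highest on replicate 1 in all 4 groups. Replicate 1 was the highest in all 4 groups for Cd22, Jchain, Mzb1 and Pigr, 4 of the 27 genes, as for 6.98% of all probe sets. Summed enterocyte signal ran the same way, from 388734 to 629866 on replicate 1 arrays and from 173119 to 254354 on replicate 3 arrays. So did the highest scaled signal of an array, 85087 to 145043 on replicate 1 and 30742 to 51250 on replicate 3. The labels do not say what the number stands for, and its part in these values was not tested.

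The remaining 11 of the 38 genes gave no value past the filter. Cd8b, the partner chain of Cd8a, had a mean scaled signal of 51.2, Cd2 76.6, Cd28 92.5, Xcl1 81.9, the leukocyte antigen Cd52 65.9 and the B cell receptor chain Cd79b 67.1. Cd8b had 177, 12.4 and 57.7 in b/b duodenum, 59.7, 6.38 and 6.47 in +/b duodenum, 40.2, 5.25 and 46.7 in b/b jejunum, and 88, 59.2 and 55.5 in +/b jejunum. Cd79b had 61, 104 and 53.1 in b/b duodenum, 138, 27.1 and 14.9 in +/b duodenum, 77.3, 52.8 and 5.9 in b/b jejunum, and 235, 7.53 and 27.6 in +/b jejunum. Such arrays differ several-fold within a group, so no change is given. Ccr9, Ccr7, Cd79a, Pax5 and Irf4 had no probe set of their own in the annotation used here. Just inside the filter were Cd4 at 103 and Klrd1 at 128, and just outside it Cd28 at 92.5 and Xcl1 at 81.9.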

How the data were processed

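RNA from mucosal scrapes was read on 12 Affymetrix rat arrays, 3 in each of 4 groups. The deposited values are linear intensities per probe set, and the submitters' processing notes name MAS5 for 10 of the 12 arrays, with a version not given in the sources used here. The deposited intensities were rescaled here to a 2% trimmed mean of 500 on each array, since 2 arrays stood on another scale, 57 control probe sets were left out of 31099, and log2(scaled signal + 16) was taken, which understates changes of dim genes. Array annotation paired 20826 probe sets with 1 gene, 436 with several and 9780 with none. Of those genes' identifiers, 20758 were in the RefSeq table and 0 symbols differed from it. Group means were fitted over all 12 arrays with limma 3.58.1 in R 4.3.3, with an intensity trend and Benjamini-Hochberg adjustment (threshold 0.05) over the 17694 probe sets past the filter, and the fit was tested on simulated data. No test was used beyond limma, and the number of arrays limits its precision.

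Same-numbered duodenum and jejunum arrays of a genotype are taken as the same set of rats, from the series' design and their titles, and their deviations from the group means correlated at 0.16 to 0.38 in b/b and 0.19 to 0.28 in +/b. Arrays of different genotype that share only a number correlated as much in part, at 0.12 to 0.42 between the jejunum groups and 0.14 to 0.45 between +/b jejunum and b/b duodenum, so the correlations do not show that rats were shared. Replicate block fits use the set of rats for segment contrasts and the replicate number for genotype contrasts. p-values of the main fit measure the spread between arrays of a group, each from a set of pooled rats. For segment contrasts that fit takes the duodenum and jejunum arrays of a set as independent. In the replicate block fits of those contrasts, p-values measure the spread between sets in the segment difference. The named genes are all 38 genes, with values per array for those without overlap by genotype or called and for a fixed set of markers, and from other lists those called or among the 4 of smallest p by genotype. The genes and the lists were chosen with earlier results of these data known, and the motifs after the promoter sequences were seen. Alternatives changed the filter, scaling, offset, probe sets, weights, block and arrays left out.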

Additional observations from a re-analysis of the deposited data

How the results depend on the processing

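By their brightest probe sets none of the 27 genes was called by genotype or in the interaction under any alternative run. Without rescaling 2 dimmer probe sets were called by genotype in duodenum, beside 366 of all 17694 probe sets. Without +/b duodenum replicate 2 the dimmer of Il7r was called between segments in +/b (change 3.13, adjusted p 0.0359 by limma), beside 21 of all probe sets. Leaving out each array in turn gave 0 called genes in all 5 comparisons. With the replicate block 2 genes were called between segments in b/b and 1 in +/b, and leaving out each set of rats there gave 0 to 3 and 0 to 1. Without rescaling, where all probe sets shifted by medians of 1.51 (genotype, duodenum), 1.60 (segment, +/b) and -1.55 (interaction), T cell medians were 1.71, 1.94 and -1.91, and B cell and plasma cell medians 1.68, 1.23 and -1.68. In that setting 17 of the 27 genes were called between segments in +/b, beside 8673 of all 17694 probe sets. The cause of the other shifts was not tested. Leaving out arrays moved the T cell median over -0.20 to 0.26 (genotype, duodenum), -0.28 to -0.04 (genotype, jejunum), -0.15 to 0.36 (segment, b/b), 0.10 to 0.49 (segment, +/b) and -0.48 to -0.01 (interaction). The B cell and plasma cell median moved over -0.12 to 0.36, -0.15 to 0.23, -0.66 to -0.19, -0.41 to -0.05 and -0.41 to 0.21 (0.14 without +/b set 2 in the block fit), so its sign in both genotype comparisons and the interaction depends on single arrays. That median in b/b between segments was -0.70 with no filter, with a minimum of 200 and over all probe sets of the genes, and in +/b -0.05 with no filter and -0.63 with the other 2. Its genotype value in duodenum was -0.16 with array weights and -0.50 without both unscaled arrays, which gave -0.71 between segments in +/b and 0.34 for the interaction. Without the 2 arrays high in pancreas genes, chosen after seeing the data like the sets of rats left out, the interaction was 0.15. The fit of only the arrays compared gives no interaction value. The pairing changed no other call of the 27 genes, and as a random block (correlation 0.315) it called 0 of them in all 5 comparisons. For 9 of the 18 T cell genes in jejunum the 95% interval stayed within 1 log2 unit of 0, and dim genes such as Cd4 had wider ones.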
